A study of Arabidopsis thaliana with 6 samples.

Results

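The NAC family is one of the largest families of plant transcription factors. Its members were followed here in wild-type (WT) Arabidopsis root tips exposed to aluminum (Al). The members were 47 loci listed by identifier, chosen for known roles in stress, in the root cap, in vascular tissue and at organ boundaries. They were chosen with earlier results of these data known. A row among the 24379 genes of the expression table was present for 46 of them. CUC3 was the one without a row and is not analysed here. A total of 37 members passed a filter on low values (3 or more samples at or above 1 FPKM) and were tested, and the other 9 lay between 0 and 0.81 FPKM in every sample.

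The study exposed 7-day-old WT (Col-0) seedlings, grown hydroponically in MGRL solution, to 25 µM AlCl3 for 3 h, and sequenced RNA from root tips of approximately 0.5 cm. The comparison is between 3 Al samples and 3 control samples without AlCl3, labelled with one genotype and differing by treatment alone. The labels give the tissue as roots and do not give the AlCl3 dose or the length of exposure, which come, like the cutting of tips, from the study's text. No source used here says whether the samples came from separate cultures, so the p-values measure the spread between these samples, which may be technical. FPKM is the number of sequenced fragments of a gene, divided by its transcript length and scaled to the mapped fragments of the sample, so levels may be compared between genes.

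NAC proteins bind DNA through a conserved domain at the amino end, after which the family is named (NAM, ATAF1/2 and CUC2), and a variable carboxyl end drives or represses transcription. Some members are held in a membrane by a hydrophobic stretch at the carboxyl end and are released by proteolysis under stress. In roots, family members specify the root cap and the xylem, carry auxin signals into lateral root formation, and respond to abscisic acid (ABA), oxidative stress and mitochondrial dysfunction.

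Of the 37 tested members, 19 were higher after Al and 6 were lower (limma on log2(FPKM + 1), p-values adjusted over 18463 genes by the Benjamini-Hochberg method, called at 0.05). The share called in either direction was 67.6%, where 59.8% of all tested genes were called. The share called higher was 51.4%, beside 21.3% of all genes, and the share called lower was 16.2%, beside 38.5% of all genes. A log2 difference of at least 1 was reached by 10 higher and 2 lower members, where 6.45% of all genes rose and 2.88% fell by that much. In 29 members the Al and control samples did not overlap, which was also true of 66.3% of all genes. The median log2 difference was 0.34 over the members and -0.13 over all tested genes. Since the members were chosen with earlier results of these data known, these shares and medians are descriptive. In RNA from a whole root tip, fewer cells of a type and less RNA per cell cannot be told apart.

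The split of all genes depended on the scaling. With samples scaled by the median ratio, the median over all genes was at 0 to within rounding, and 5381 genes were higher and 4984 lower, in place of 3933 and 7106. The members moved less, with 22 higher and 5 lower under that scaling. The table marks 56 further genes as NAC, of which 32 were tested, and their median log2 difference was 0.00. Among them 37.5% were called, 5 higher and 7 lower after Al, and median-ratio scaling called 9 higher and 4 lower. No call among them had a log2 difference of 1 or more. The largest of their differences belonged to NAC011, with 1.95, 2.93 and 2.33 FPKM after Al and 1.14, 0.77 and 0.45 FPKM in control.

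**Figure D1:**
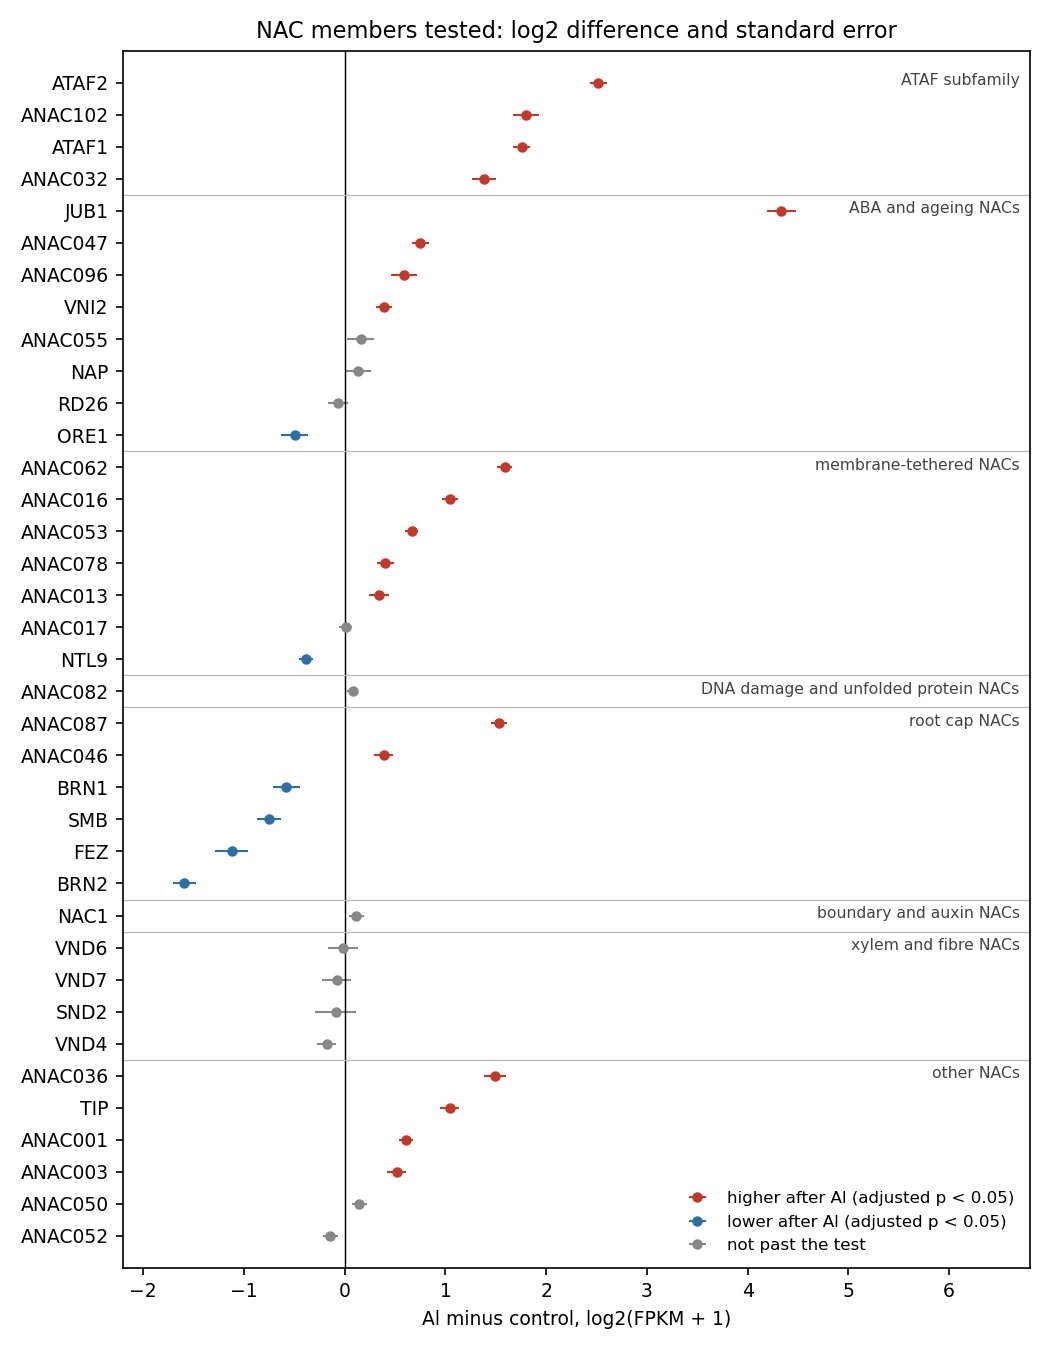
Log2 difference, Al minus control, of log2(FPKM + 1) for the 37 tested NAC members, in rows grouped by role. Points are limma estimates and bars are 1 standard error (3 samples per group). Red marks the 19 members higher after Al, blue the 6 lower and grey the 12 not past the test. JUB1 lies farthest to the right at 4.33 and BRN2 farthest to the left at -1.59.

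All 4 members of the ATAF subfamily were higher after Al, where 21.3% of all tested genes were called higher. These 4 factors respond to wounding, pathogens, drought and ABA, and ATAF1 is known to activate NCED3, an enzyme gene of ABA synthesis. ATAF2 (AT5G08790) had 127.67, 127.82 and 117.53 FPKM in the Al samples and 18.91, 20.46 and 23.61 FPKM in control, which is 5.92 times as much on average. No Al sample came near the control range, and the log2 difference was 2.51 ± 0.08 (SE, limma adjusted p = 3.11e-08). By mean level ATAF2 was 2nd of the 37 members after Al and 16th in control.

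ANAC102 (AT5G63790) showed 53.08, 48.49 and 39.12 FPKM after Al and 10.7, 13.37 and 14.09 FPKM in control (log2 difference 1.8 ± 0.13, limma adjusted p = 4.01e-06). ATAF1 (AT1G01720) was measured at 26.51, 25.24 and 26.44 FPKM after Al and at 6.33, 7.05 and 7.69 FPKM in control (log2 difference 1.76 ± 0.08, limma adjusted p = 2.57e-07). ANAC032 (AT1G77450), the lowest of the 4, had 3.81, 3.49 and 2.93 FPKM after Al and 0.62, 0.62 and 0.84 FPKM in control (log2 difference 1.38 ± 0.12, limma adjusted p = 1.32e-05). In each of the 4 genes every Al sample lay above every control sample, and ANAC032 passed the filter through its Al samples alone. Their summed level was 211.1, 205 and 186 FPKM after Al and 36.56, 41.5 and 46.23 FPKM in control. They made up 15.6% of the summed FPKM of all members after Al and 4.76% in control. ATAF2 and ANAC102 are 79.9% identical in protein sequence and ATAF1 and ANAC032 are 70.0% identical, but no member of the subfamily shared a stretch of 50 bases with another gene. ATAF1, ATAF2 and ANAC102 overlap genes on the opposite strand, and the strand setting of the counting is not given in the sources used here, so reads of those neighbours cannot be separated from theirs. The same limit holds for JUB1, VNI2, ANAC013, ANAC078, NAC1 and VND6, which also overlap genes on the opposite strand.

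The largest rise of any member was that of JUB1 (JUNGBRUNNEN1, AT2G43000), a factor induced by hydrogen peroxide that delays leaf ageing. It had 37.85, 32.09 and 35.03 FPKM in the Al samples and 0.41, 1.04 and 0.96 FPKM in control, a ratio of means of 43.6. It ranked 35th of the 37 members in control and 16th after Al. Its control samples would not have passed the filter without its Al samples. The control values are few reads. Estimated from the steps between low FPKM values, they stand for about 11.9, 30.5 and 27.8 fragments, beside 1100, 932.4 and 1008.5 after Al. The log2 difference was 4.33 ± 0.14 (limma adjusted p = 2.75e-08), which the pseudocount of 1 makes smaller than the ratio. A pseudocount of 0.1 raised the size of the log2 difference by over 1.5 times in low members, to 2.15 for ANAC032, 0.88 for ANAC096, 2.84 for ANAC036 and -1.94 for FEZ, with the calls kept. JUB1 overlaps AT2G42990 on the opposite strand.

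The 300 bases before the start of 3 members are shown because they rose or fell most (JUB1, BRN2) or hold matches to both motifs marked here (ANAC032). They were read from TAIR10.1 in the direction of the gene. JUB1 is at chr2:17882637-17882936 on the minus strand, ANAC032 at chr1:29099539-29099838 on the plus strand and BRN2 at chr4:6416962-6417261 on the minus strand. Capitals mark TTGAC, the core of the W-box bound by WRKY factors, and ACGTGNC, the ABA-responsive element (ABRE), on either strand. In ANAC032 one run of capitals holds overlapping matches to the ABRE on both strands.
JUB1: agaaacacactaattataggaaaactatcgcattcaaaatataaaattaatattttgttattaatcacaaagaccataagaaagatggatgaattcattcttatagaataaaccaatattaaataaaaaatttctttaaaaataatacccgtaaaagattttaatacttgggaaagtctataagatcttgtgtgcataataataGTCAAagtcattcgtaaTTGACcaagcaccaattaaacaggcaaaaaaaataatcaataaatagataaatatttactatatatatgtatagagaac
ANAC032: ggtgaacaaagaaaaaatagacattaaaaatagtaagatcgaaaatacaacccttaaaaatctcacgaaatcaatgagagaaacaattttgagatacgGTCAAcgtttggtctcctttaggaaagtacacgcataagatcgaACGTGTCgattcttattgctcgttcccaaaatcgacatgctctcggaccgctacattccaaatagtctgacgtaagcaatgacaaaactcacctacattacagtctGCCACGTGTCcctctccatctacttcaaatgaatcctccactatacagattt
BRN2: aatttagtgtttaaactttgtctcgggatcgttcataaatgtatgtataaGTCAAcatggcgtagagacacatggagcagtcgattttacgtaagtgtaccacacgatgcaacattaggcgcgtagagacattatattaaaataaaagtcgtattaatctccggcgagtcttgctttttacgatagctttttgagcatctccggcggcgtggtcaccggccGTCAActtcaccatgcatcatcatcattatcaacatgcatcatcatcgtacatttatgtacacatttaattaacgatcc

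Of the 12 members with a log2 difference of at least 1 in either direction, 7 had TTGAC in this window (58.3%), where 50.7% of all 24173 promoters of the same length had it. They were ATAF1, ATAF2, ANAC032, JUB1, ANAC062, TIP and the falling BRN2. ACGTGNC was in 3 of the 12 (ANAC032, ANAC062 and TIP), or 25%, and in 10.0% of all promoters. Among all 47 members ACGTGNC was in 10 (21.3%), the uncalled RD26 and NAP included, and TTGAC was in 22 (46.8%). None of the 12 had the mitochondrial dysfunction motif bound by ANAC013 and ANAC017 (CTTG, any 5 bases, then CANG, in 2.01% of all promoters). None had the element of the DNA damage factor SOG1 (CTT, any 7 bases, then AAG, in 11.3%) or CGCGTT, the rapid stress response element (3.25%). All motifs were searched on both strands. Among the 47 members the mitochondrial motif was found only in the windows of ANAC017 and ANAC044. A match is a description of these letters and not a bound site.

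**Figure D2:**
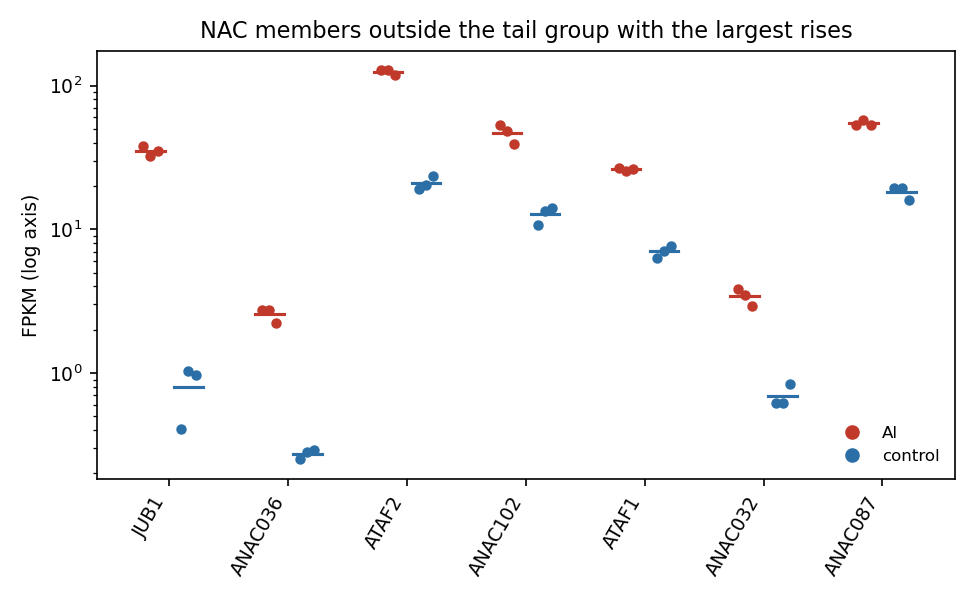
FPKM on a log axis in each Al sample (red, left of each pair) and control sample (blue, right) for the 7 rising members without a hydrophobic tail whose log2 difference was at least 1. Short lines are group means of 3 samples. JUB1 and ANAC036 lie below 1.05 FPKM in control and above 2.2 FPKM after Al, while ATAF2 lies between 117.53 and 127.82 FPKM after Al.

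The group of NAC factors of ABA signalling and ageing, to which JUB1 belongs, moved in both directions. Of 8 tested, 4 were higher after Al (JUB1, ANAC047, ANAC096 and VNI2), 1 was lower and 3 were not called. The shares were 50% higher and 12.5% lower, beside 21.3% and 38.5% of all genes. ANAC047 (AT3G04070), known for leaf movement during waterlogging, had 25.81, 30.78 and 28.52 FPKM after Al and 16.6, 17.26 and 15.42 FPKM in control (log2 difference 0.75 ± 0.08, limma adjusted p = 6.43e-05). Its groups did not overlap, and correction for transcript GC content left a log2 difference of 0.43 (adjusted p = 0.00173). ANAC096 (AT5G46590), which acts with ABA-responsive bZIP factors, had 2.06, 2.89 and 2.14 FPKM after Al and 1.28, 1.36 and 1.05 FPKM in control (log2 difference 0.59, limma adjusted p = 0.00328).

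VNI2 (AT5G13180), an inhibitor partner of the xylem factor VND7 that also slows leaf ageing, was the member with the highest level in both groups. It had 148.58, 172.69 and 178.06 FPKM after Al and 128.57, 126.63 and 124.11 FPKM in control (log2 difference 0.39, limma adjusted p = 0.00205). The calls of VNI2 and ANAC096 were lost when values were corrected for transcript GC content, a correction added after the data were seen. It left log2 differences of 0.03 (adjusted p = 0.784) for VNI2 and 0.21 (adjusted p = 0.176) for ANAC096. These transcripts have GC contents of 35.7% and 35.6%, the lowest of the 47 members.

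ORE1 (AT5G39610), which promotes leaf ageing and cell death, had 12.98, 13.82 and 15.83 FPKM after Al and 16.8, 20.11 and 25.04 FPKM in control. The groups did not overlap, and the log2 difference was -0.50 ± 0.13 (limma adjusted p = 0.0104). Under median-ratio scaling it was -0.36 and missed the threshold (adjusted p = 0.051). RD26 (AT4G27410), a dehydration-induced gene of the ABA response, was among the most abundant members, with 87.17, 77.25 and 71.14 FPKM after Al and 86.56, 87.83 and 72.4 FPKM in control. Its groups overlapped and it was not called (log2 difference -0.07, limma adjusted p = 0.58). ANAC055 (AT3G15500), a jasmonate and ABA factor, had 36.03, 38.17 and 50.73 FPKM after Al and 32.14, 37.28 and 41.55 FPKM in control, again overlapping and not called (limma adjusted p = 0.327). Its relative ANAC019, 74.1% identical in protein sequence, was listed between 0.1 and 0.17 FPKM after Al and between 0 and 0.07 FPKM in control, too low to test. NAP (AT1G69490), which activates the ABA synthesis gene AAO3 in ageing leaves, was at 28.07, 30.4 and 33.46 FPKM after Al and 22.81, 27.55 and 34.02 FPKM in control (limma adjusted p = 0.397).

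Genes of ABA, jasmonate and ageing that these factors are known to control were mostly low in the root tip. Of 9 with a row, 3 passed the filter. DREB2A, a target of JUB1 and a regulator of drought and heat responses, was called higher after Al, with 56.73, 44.29 and 28.9 FPKM after Al and 28.8, 27.93 and 28.86 FPKM in control. Its lowest Al sample stood level with the highest control sample. The call (log2 difference 0.53, limma adjusted p = 0.0375) was lost with no filter, with TPM scaling, with no mean-variance trend, without Al replicate 1, without Al replicate 2 and without any one of the control replicates, with adjusted p-values up to 0.13. AAO3 was not called. ERD1, a drought and ageing gene, had 34.4, 33.04 and 33.9 FPKM after Al and 35.48, 39.15 and 39.97 FPKM in control. Its groups did not overlap, and it narrowly missed a lower call (log2 difference -0.17, limma adjusted p = 0.0502). Over the fits its adjusted p-value ran from 0.0157 to 0.747. NCED3 had 0.92, 0.68 and 0.85 FPKM after Al and 0.58, 0.42 and 0.53 FPKM in control. Its groups did not overlap, and it was under the filter but was called higher without it (limma adjusted p = 0.0247).

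ORE1, NAC1, CUC1 and CUC2 are targets of the microRNA miR164, and their sites are shown because the 4 mRNAs were at very different levels. The mature sequences were read from TAIR10.1, with the seed (bases 2 to 8) in capitals. The mature miR164a is at chr2:19520770-19520790 (plus strand), miR164b-5p at chr5:287586-287606 (plus strand) and miR164c-5p at chr5:9852684-9852704 (plus strand), and all 3 share one seed. The sites are given 5′ to 3′ on the mRNA strand, with capitals at bases that differ from the exact complement of miR164a. Each such base is counted as a mismatch, also where it could form a G-U pair. That is so for the capital T in CUC1 and CUC2 and the last G of ORE1. Each lies in the coding part of exon 3 of 3. The site of NAC1 is at chr1:20947142-20947162 (minus strand), that of ORE1 at chr5:15858797-15858817 (minus strand), that of CUC1 at chr3:5111137-5111157 (plus strand) and that of CUC2 at chr5:21902301-21902321 (minus strand).
miR164a: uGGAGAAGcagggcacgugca
miR164b-5p: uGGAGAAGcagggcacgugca
miR164c-5p: uGGAGAAGcagggcacgugcg
NAC1 site: AgcacgtAccctgcttctcca
ORE1 site: CTcacgtgAcctgcttctccG
CUC1 site: AgcacgtgTcctgTttctcca
CUC2 site: AgcacgtgTcctgTttctcca

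NAC1 (AT1G56010), which carries auxin signals in lateral root formation, had the fewest mismatches of the 4 by this count, at 2. It was at 65.23, 65.61 and 74.35 FPKM after Al and 59.91, 67.32 and 62.29 FPKM in control. The groups overlapped and NAC1 was not called (log2 difference 0.11, limma adjusted p = 0.221), although it was called higher under median-ratio scaling (0.26, adjusted p = 0.0347) and with the GC correction (0.19, adjusted p = 0.0391). ORE1, with 4 mismatches, fell as described above. CUC1 and CUC2, which form boundaries between organs and have identical sites with 3 mismatches, were near 0, at no more than 0.38 FPKM in any sample. Levels of miR164 itself are not analysed here.

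Membrane-tethered members were mostly higher after Al. Of the 7 tested under that heading, 5 were higher, 1 was lower and 1 was not called, with a median log2 difference of 0.40. The share higher was 71.4%, beside 21.3% of all genes, and the share lower was 14.3%, beside 38.5%. ANAC062 (AT3G49530), which carries signals of the unfolded protein response, cold and infection, rose most. It had 85.12, 77.96 and 72.73 FPKM in the Al samples and 24.44, 25.13 and 26.89 FPKM in control (log2 difference 1.59 ± 0.07, limma adjusted p = 2.55e-07). It was 3rd of the 37 members by level after Al and 13th in control. ANAC016 (AT1G34180), a factor of leaf ageing and drought, had 22.9, 21.43 and 23.96 FPKM after Al and 9.96, 10.63 and 10.94 FPKM in control. That is a log2 difference of 1.04 ± 0.08 (limma adjusted p = 4.4e-06).

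ANAC017 (AT1G34190), a regulator of mitochondrial stress signalling, lies directly beside ANAC016 on chromosome 1 and is 74.5% identical to it in protein sequence. It had 40.79, 40.71 and 42.36 FPKM after Al and 39.18, 42.43 and 41.65 FPKM in control, with overlapping groups and a log2 difference of 0.01 (limma adjusted p = 0.925). The neighbours therefore stood at log2 differences of 1.04 and 0.01, and no test of the difference between the 2 genes was run. They share no stretch of 50 bases. ANAC013 (AT1G32870), induced through the mitochondrial motif, had 14.02, 12.9 and 10.89 FPKM after Al and 9.44, 9.17 and 10.56 FPKM in control. Its call (log2 difference 0.34, limma adjusted p = 0.0183) was lost without Al replicate 1, Al replicate 2, control replicate 1 or control replicate 2, with adjusted p-values of 0.0532 to 0.0687.

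ANAC053 and ANAC078, which together switch on proteasome genes when protein breakdown is impaired, were both higher. ANAC053 (AT3G10500) had 36.83, 35.64 and 34.48 FPKM after Al and 20.79, 22.45 and 23.24 FPKM in control (log2 difference 0.66 ± 0.07, limma adjusted p = 4.16e-05). ANAC078 (AT5G04410), 71.9% identical in protein sequence, had 55.24, 53.45 and 49.04 FPKM after Al and 36.77, 38.07 and 44.03 FPKM in control (log2 difference 0.40 ± 0.08, limma adjusted p = 0.0025). Neither gene had overlapping groups. NTL9 (AT4G35580), a calmodulin-regulated factor of osmotic stress and immunity, went the other way, with 31.54, 32.56 and 30.07 FPKM after Al and 39.08, 43.55 and 41.24 FPKM in control (log2 difference -0.38 ± 0.07, limma adjusted p = 0.000998). Under median-ratio scaling it was -0.24 and still called (adjusted p = 0.0111).

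A hydrophobic stretch at the carboxyl end was also searched for in the proteins translated from TAIR10.1 coding sequences, as a mean Kyte-Doolittle hydropathy of at least 1.6 over 19 residues within the last 60. Only the protein of the longest coding sequence of each gene was searched, so a tail in another form of the protein would be missed. A tail was found in 8 of the 47 members, among them every tethered member but NTL9, and in ANAC001 and TIP. NTL9, which was lower after Al, is thus counted among the members without a tail. In all proteins of the table's genes 10.5% had such a tail, and among the other NAC genes 14.3%. Of the 8 members with a tail, 7 were higher after Al and none was lower, in limma at an adjusted or an unadjusted p under 0.05, with a median log2 difference of 0.63. Of the 29 tested without one, 12 were higher and 6 lower, with a median of 0.13. Over all tested genes 21.3% were called higher and 38.5% lower. These counts are descriptive, since the members were not drawn at random. The calls of the other NAC genes with such a tail were not counted, so nothing is said here of tailed NAC genes as a class.

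The coding stretches of 4 of these tails are shown to set ANAC016 beside its quiet neighbour ANAC017, and ANAC062 beside its relative TIP. Each is 57 bases of the coding strand, and capitals mark codons with T in the middle, which encode hydrophobic residues. The stretch of ANAC016 is at chr1:12451028-12451084 (plus strand), that of ANAC017 at chr1:12453816-12453872 (plus strand), that of ANAC062 at chr3:18362660-18362716 (minus strand) and that of TIP at chr5:8416926-8416982 (minus strand), each within 1 exon.
ANAC016: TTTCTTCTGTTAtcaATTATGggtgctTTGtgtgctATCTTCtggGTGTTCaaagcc
ANAC017: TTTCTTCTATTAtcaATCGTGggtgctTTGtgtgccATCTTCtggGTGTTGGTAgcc
ANAC062: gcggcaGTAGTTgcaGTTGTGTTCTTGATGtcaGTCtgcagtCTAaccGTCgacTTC
TIP: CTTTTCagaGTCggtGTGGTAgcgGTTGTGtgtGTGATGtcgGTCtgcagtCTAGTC

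Such codons made up 11 of 19 in ANAC016 and 12 of 19 in ANAC017, and 11 in ANAC062 and 12 in TIP. TIP (AT5G24590), named for its interaction with a viral coat protein, is 62.3% identical to ANAC062 in protein sequence, and the table's factor annotation places it under VOZ and not NAC. It had 67.18, 59.66 and 53.55 FPKM after Al and 28.08, 26.95 and 30.88 FPKM in control (log2 difference 1.04 ± 0.09, limma adjusted p = 1.52e-05). ANAC001 (AT1G01010), whose tail ends at the last codon, had 21.63, 22.46 and 21.79 FPKM after Al and 13.14, 14.92 and 14.26 FPKM in control (log2 difference 0.61 ± 0.07, limma adjusted p = 0.000104). In both genes the lowest Al sample was above the highest control sample.

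**Figure D3:**
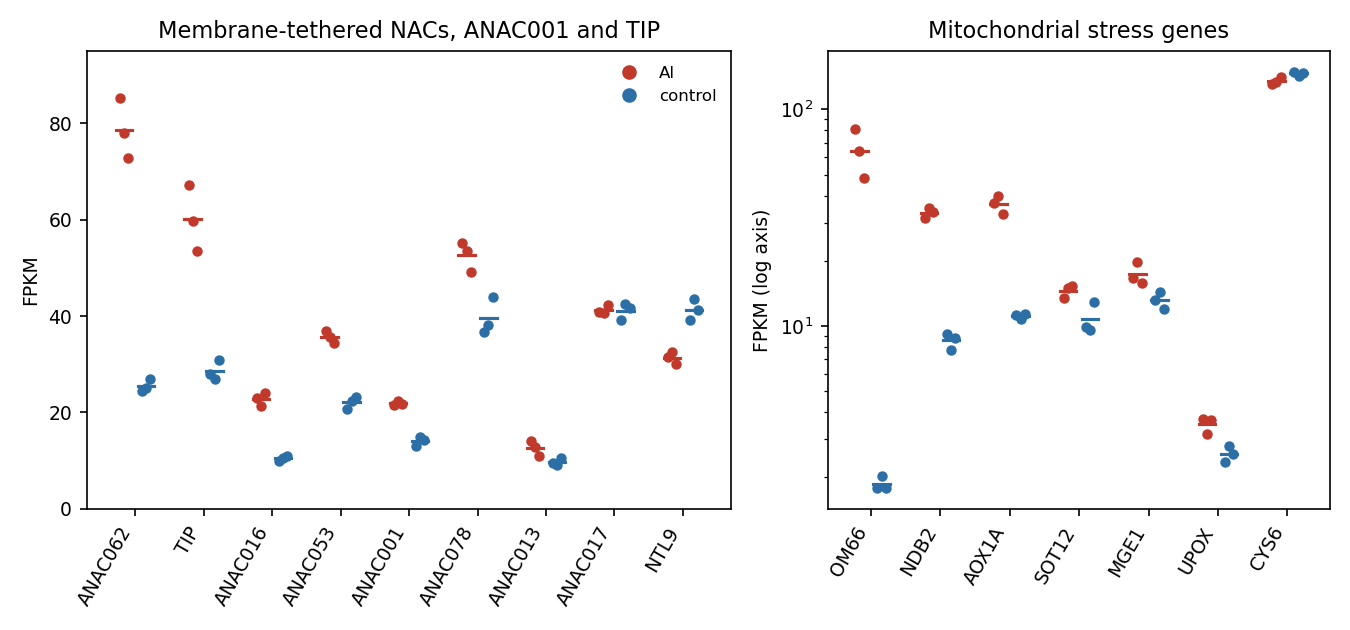
Left, FPKM on a linear axis for the 7 membrane-tethered members and the 2 other members with a hydrophobic tail, ANAC001 and TIP. Right, FPKM on a log axis for the 7 tested mitochondrial stress genes. Each dot is 1 of 3 Al samples (red, left of each pair) or 3 control samples (blue, right), and short lines are means. ANAC017 is level between groups near 41 FPKM while ANAC062 and TIP are well above control, and OM66 lies between 48.11 and 81.01 FPKM after Al.

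Genes with the mitochondrial dysfunction motif that ANAC013 and ANAC017 are known to activate were higher after Al in 6 of 7 tested cases, with a median log2 difference of 0.41. That is 85.7%, where 21.3% of all tested genes were called higher. A log2 difference of at least 1 was reached by 3 of the 7. The genes were listed with earlier results of these data known, so the shares are descriptive. No gene of the 7 was lower in limma at an adjusted or an unadjusted p under 0.05, although 1 was called lower under TPM scaling and 1 under quantile normalization. OM66, an outer mitochondrial membrane ATPase, had 81.01, 64.14 and 48.11 FPKM after Al and 1.78, 2.03 and 1.79 FPKM in control (log2 difference 4.48 ± 0.16, limma adjusted p = 4.37e-08). NDB2, an external NADH dehydrogenase, had 31.48, 34.98 and 33.44 FPKM after Al and 9.19, 7.71 and 8.79 FPKM in control (limma adjusted p = 1.95e-07). AOX1A, the alternative oxidase, had 36.86, 39.76 and 32.97 FPKM after Al and 11.24, 10.71 and 11.34 FPKM in control (limma adjusted p = 3.61e-07). UPOX, SOT12 and MGE1 differed by less, with log2 differences of 0.34 to 0.41. With the GC correction, with or without a replicate block, 4 of the 7 were higher, since the calls of UPOX (adjusted p up to 0.248 over the alternatives) and SOT12 (up to 0.142) were lost. CYS6, the tested gene not called, had 131.54, 133.81 and 141.8 FPKM after Al and 149.58, 142.43 and 147.94 FPKM in control (log2 difference -0.11, limma adjusted p = 0.139). Its groups did not overlap. UGT74E2, a glucosyltransferase gene of the same regulon, was at 0.85, 1.01 and 1.1 FPKM after Al and was listed at 0 in all 3 control samples. It was under the filter, as were AT12CYS-2 and NDB4. AT12CYS-2 had 0.16, 0.21 and 0.05 FPKM after Al and 0.16, 0.16 and 0.11 FPKM in control. NDB4 did not exceed 0.09 FPKM.

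The root cap members moved in both directions, and all 6 passed the test, as did 59.8% of all tested genes. The share called lower was 66.7%, beside 38.5% of all genes, and the share called higher was 33.3%, beside 21.3%. The 4 factors that specify the cap and its maturation were lower after Al. SMB (SOMBRERO, AT1G79580), which sets the fate and death of lateral root cap cells, had 6.36, 6.71 and 5.65 FPKM after Al and 10.51, 9.93 and 13.39 FPKM in control (log2 difference -0.75 ± 0.12, limma adjusted p = 0.000524). BRN2 (BEARSKIN2, AT4G10350), which acts in cell release from the cap, fell most, with 2.25, 1.94 and 2.17 FPKM after Al and 7.2, 9.66 and 8.54 FPKM in control (log2 difference -1.59 ± 0.11, limma adjusted p = 4.42e-06). Its partner BRN1 (AT1G33280), 74.4% identical in protein sequence, had 3.68, 3.28 and 2.29 FPKM after Al and 5.07, 5.3 and 4.78 FPKM in control (log2 difference -0.58 ± 0.13, limma adjusted p = 0.0048). In all of these genes the groups were apart.

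FEZ (AT1G26870), which promotes the stem cell divisions that renew the cap, had 0.6, 0.76 and 0.35 FPKM after Al and 1.7, 2.92 and 2.72 FPKM in control (log2 difference -1.12 ± 0.17, limma adjusted p = 0.000382). These values stand for few reads, an estimated 18.9, 24 and 10.9 fragments after Al and 53.7, 92.9 and 85.6 in control. FEZ passed the filter through its control samples alone. The other 2 factors, ANAC087 and ANAC046, act in the programmed death of cap cells and were higher. ANAC087 (AT5G18270) had 53.1, 57.44 and 53.19 FPKM after Al and 19.21, 19.5 and 16.1 FPKM in control (log2 difference 1.53 ± 0.08, limma adjusted p = 6.85e-07). ANAC046 (AT3G04060), which is 69.0% identical to it, had 37.59, 41.5 and 45.53 FPKM after Al and 33.46, 33.46 and 27.76 FPKM in control (log2 difference 0.39 ± 0.10, limma adjusted p = 0.00686).

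Downstream genes of cap maturation and death moved less uniformly. Of 9 tested, 3 were lower after Al, 1 was higher and 5 were not called, and the median log2 difference was -0.26. That is 33.3% lower and 11.1% higher, where 38.5% and 21.3% of all genes were called lower and higher, so the share that fell was not above that of all genes. PASPA3, a protease gene that marks cells before death, had 1.58, 1.84 and 1.55 FPKM after Al and 3.5, 4.06 and 2.88 FPKM in control (log2 difference -0.75, limma adjusted p = 0.000687). RCPG, the root cap polygalacturonase that BRN1 and BRN2 switch on, had 3.93, 4.48 and 2.89 FPKM after Al and 7.6, 6.59 and 6.42 FPKM in control (log2 difference -0.73, limma adjusted p = 0.00132). CEL5, a cellulase gene of shedding cap cells, had 8.37, 7.61 and 7.18 FPKM after Al and 11.63, 11.44 and 11.52 FPKM in control (limma adjusted p = 0.000519). BFN1, a nuclease gene of dying cells, was at 3.59, 4.4 and 4.28 FPKM after Al and 4.13, 3.5 and 3.78 FPKM in control and was not called. DMP4 was the one called higher (limma adjusted p = 0.0432), with overlapping groups, and that call was lost without Al replicate 2, Al replicate 3, control replicate 2 or control replicate 3, with no filter, with a replicate block, with TPM scaling and with the GC correction.

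**Figure D4:**
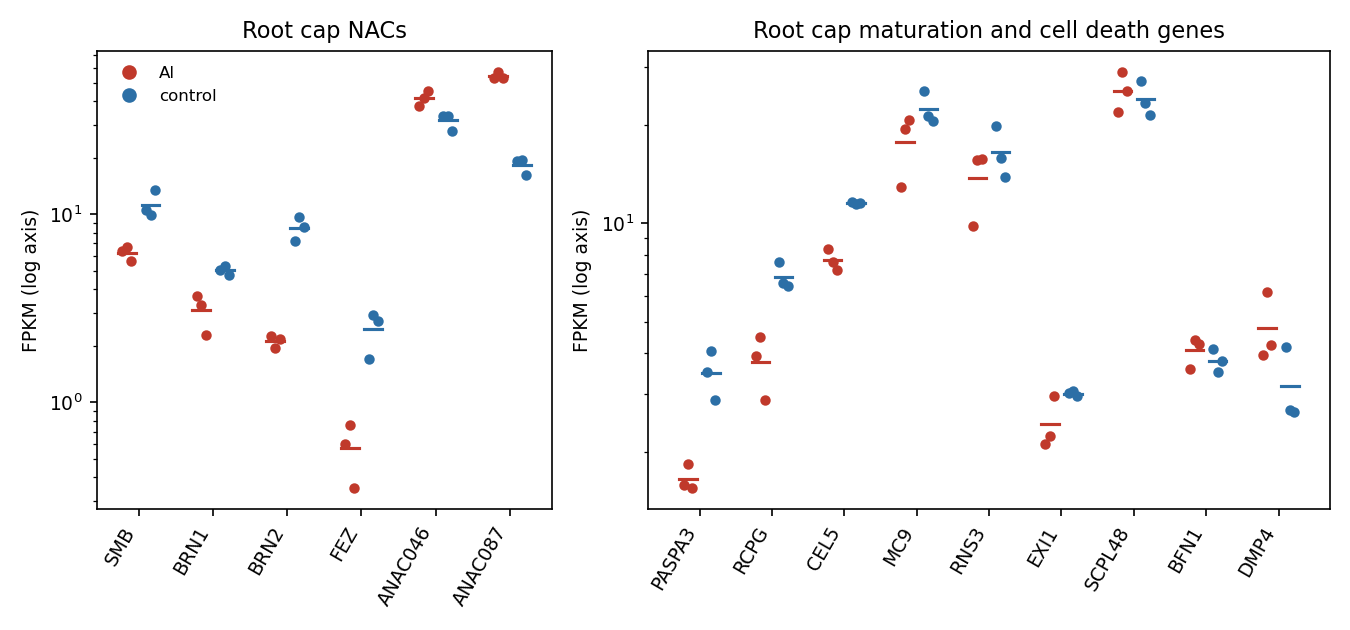
FPKM on log axes for the 6 root cap members (left) and the 9 tested genes of root cap maturation and cell death (right). Each dot is 1 of 3 Al samples (red, left of each pair) or 3 control samples (blue, right), and short lines are means. SMB, BRN1, BRN2 and FEZ lie below control after Al, ANAC046 and ANAC087 lie above it, and PASPA3, RCPG and CEL5 lie below it.

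Other tissue markers shifted in the same samples. Of 7 tested markers of root tip tissues 5 were lower after Al (71.4%), where 38.5% of all genes were called lower. PLT1, a stem cell factor, had 5.1, 4.56 and 3.53 FPKM after Al and 8.19, 7.62 and 10.45 FPKM in control. COBL9, a root hair gene, had 2.2, 3.25 and 2.63 FPKM after Al and 9.08, 9.11 and 6.68 FPKM in control. The lower calls of CASP1 and APL were lost in some alternatives, with limma adjusted p-values up to 0.174 and 0.108. The groups of CASP1 overlapped. SHR and SCR, factors of the ground tissue, were not called, and WOX5, a marker of the stem cell centre, was at 1 FPKM or less. The summed level of all 8 markers was 128.2 to 132.2 FPKM after Al and 150.5 to 182.4 FPKM in control. CASP1 alone gave 60.65 to 69.95 FPKM of that sum after Al and 68.09 to 101.16 FPKM in control. The part of these markers in the fall of the cap factors was not tested. The shoot genes STM, WUS, FAMA and LFY were at 0.08 FPKM or less in every sample, and LHCB1.1 was at 0.21 FPKM or less. Other shoot markers were present. RBCS1A had 8.9, 5.04 and 4.51 FPKM after Al and 6.75, 4.64 and 5.19 FPKM in control. LHCB1.3 had 1.44, 0.94 and 0.88 FPKM after Al and 1.34, 0.5 and 1.08 FPKM in control. Neither was called. Of 3 shoot markers tested CA1 was higher after Al (3.3, 2.58 and 2.98 FPKM, against 0.22, 0.11 and 0.07 FPKM in control). CA1 passed the filter through its Al samples alone. Depth estimated from the steps between low values was 21500000 to 21900000 fragments per sample.

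The xylem and fibre members did not pass the test in either direction. VND4, VND6, VND7 and SND2, factors of vessel formation and secondary walls, were each at no more than 2.68 FPKM in any sample. VND4 (AT1G12260), the most abundant, had 2.23, 2.12 and 2.02 FPKM after Al and 2.59, 2.68 and 2.35 FPKM in control (log2 difference -0.18, limma adjusted p = 0.138), and was called lower with the GC correction (-0.26, adjusted p = 0.0397). Limma gave 0 calls among these 4, also at an unadjusted p under 0.05. Of 9 tested genes of xylem death and secondary walls, including the cellulose synthases CESA4, CESA7 and CESA8 and the proteases XCP1 and XCP2, again 0 passed in limma, adjusted or unadjusted, and their median log2 difference was -0.02. Median-ratio scaling and quantile normalization each called 1 of the 9 higher. NST1, a factor of fibre walls, was at 0.3 FPKM or less.

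The members of the DNA damage response, ANAC044 and ANAC085, were close to 0. ANAC044 (AT3G01600), which halts division after DNA damage, had 0.27, 0.35 and 0.19 FPKM after Al and 0.14, 0.05 and 0.08 FPKM in control, and its relative ANAC085 did not exceed 0.08 FPKM. ANAC103, induced by the unfolded protein response, did not exceed 0.21 FPKM. ANAC082 (AT5G09330), a mediator of ribosomal stress and the abundant member of that group, had 67.18, 64.41 and 65.37 FPKM after Al and 62.31, 62.83 and 61.31 FPKM in control. Its groups did not overlap but it was not called (log2 difference 0.08, limma adjusted p = 0.251), and median-ratio scaling (0.22, adjusted p = 0.0125) and the GC correction (0.16, adjusted p = 0.0322) called it higher.

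Among 9 DNA damage genes tested, 1 was higher and 2 were lower. That is 11.1% higher and 22.2% lower, where 21.3% and 38.5% of all genes were called higher and lower. Neither share was above that of all genes. SMR5, a cell cycle inhibitor, had 44.3, 37.85 and 33.54 FPKM after Al and 11.09, 7.27 and 1.72 FPKM in control, where the samples spread widely (log2 difference 2.60 ± 0.44, limma adjusted p = 0.000859). CYCB1;1, a mitotic cyclin, had 1.58, 1.9 and 1.41 FPKM after Al and 3.35, 3.89 and 3.48 FPKM in control (limma adjusted p = 0.000251). PARP2, a repair enzyme, had 0.75, 0.68 and 0.54 FPKM after Al and 1.32, 1.69 and 1.5 FPKM in control (limma adjusted p = 0.00168), and passed the filter through its control samples alone. SOG1, itself a NAC protein and the activator of this response, was at 15.45, 14.94 and 14.19 FPKM after Al and 14.97, 15.27 and 16.87 FPKM in control and was not called.

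The remaining members included further rises. ANAC036 (AT2G17040), which dwarfs plants when overexpressed, had 2.75, 2.76 and 2.23 FPKM after Al and 0.25, 0.28 and 0.29 FPKM in control (log2 difference 1.49 ± 0.11, limma adjusted p = 5.37e-06). It was the lowest of the 37 tested members in control and passed the filter through its Al samples alone. ANAC003 (AT1G02220) had 17.7, 18.45 and 15.19 FPKM after Al and 12.32, 10.7 and 11.96 FPKM in control (log2 difference 0.51 ± 0.09, limma adjusted p = 0.00123), and 1.1% of its 50-base stretches also occur in its neighbour AT1G02250.

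ANAC050 and ANAC052, partners of the histone demethylase JMJ14, are adjacent on chromosome 3 and the most alike pair, with 84.3% protein identity. ANAC050 (AT3G10480) had 25.67, 26.23 and 23.85 FPKM after Al and 21.27, 23.09 and 23.82 FPKM in control (log2 difference 0.15, limma adjusted p = 0.107). ANAC052 (AT3G10490) had 35.92, 35.77 and 33.78 FPKM after Al and 36.18, 38.55 and 42.11 FPKM in control (log2 difference -0.14, limma adjusted p = 0.116). Neither was called, although median-ratio scaling and the GC correction called ANAC050 higher and TPM scaling called ANAC052 lower, and fewer than 1 in 100 of their 50-base stretches are shared.

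ANAC090 and ANAC061, a related pair that acts on salicylic acid signalling in ageing leaves, were under the filter. ANAC090 (AT5G22380) had 0.66, 0.81 and 0.46 FPKM after Al and 0, 0 and 0.05 FPKM in control, an estimated 12.9, 15.8 and 8.9 fragments beside 0, 0 and 1. Without the filter it was called (log2 difference 0.69, limma adjusted p = 0.00208), as were ANAC044 (0.22, adjusted p = 0.0256) and ANAC019 (0.15, adjusted p = 0.0231), each from few reads. ANAC061 (AT3G44350) was at 0.37, 0.07 and 0.14 FPKM after Al and 0, 0 and 0.07 FPKM in control. The other 5 members under the filter, ANAC085, ANAC103, CUC1, CUC2 and NST1, had adjusted p-values of 0.426 to 1 without it.

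Summed over the 46 members, the level was 1290, 1293 and 1271 FPKM after Al and 839.7, 884.5 and 885.5 FPKM in control, a ratio of 1.48. The median of the tested members' mean levels was 28.4 FPKM after Al and 16.4 FPKM in control. The sum over all genes of the table was 680864 to 688427 FPKM after Al and 647540 to 659928 FPKM in control.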

How the data were processed

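RNA-seq of 3 Al and 3 control samples of WT Arabidopsis root tips was used, with groups and replicate numbers taken from the labels. The authors deposited FPKM values per gene, scaled to the length of the transcript and the mapped fragments of the sample. The aligner, the counting tool and its strand setting are not given in the sources used here. The authors' log2 ratio, p-value and q-value columns and 6 further FPKM columns, which repeat the others, were not used. Since FPKM are not counts, limma 3.58.1 (R 4.3.3) with a mean-variance trend was applied to log2(FPKM + 1) for the 18463 genes at or above 1 FPKM in 3 or more samples. P-values are two-sided and adjusted over these genes.

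The members and gene lists were chosen with earlier results of these data known. Values in every sample are given for members called with an absolute log2 difference of at least 0.5, the most abundant member of each role group and the most alike paralogues, and other members shown this way were chosen after their values were seen. In each list the 2 largest rises and falls among called genes are named, and further listed genes were also chosen after their values were seen. Gene coordinates of all 46 members equal those of TAIR10.1 (RefSeq), as they do for 23857 of 24174 shared genes, and sequences were read from that genome with Python 3.11.15. Depth was estimated from the steps between low FPKM values, of which 89.4% to 91.5% came within 0.15 of a whole fragment, where chance gives 30.0%. Estimated fragments cover counting error only. The tests were checked on simulated data. Alternatives were another pseudocount, 2 filters, a replicate block, GC correction, 3 scalings, no trend, leaving out each sample and a log2 limit of 1.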

Additional observations from a re-analysis of the deposited data

How the results depend on the processing

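Of the 19 members called higher after Al, 16 kept their direction and call in each of the 16 alternative fits that gave a value. The exceptions were ANAC096, VNI2 and ANAC013. Of the 6 lower members, 5 did so, the exception being ORE1. JUB1, ANAC032, ANAC036 and FEZ have no value where an FPKM of at least 1 was required in every sample. Over all tested genes, same-numbered Al and control samples did not deviate together (correlations of -0.25, -0.04 and -0.22). This cannot settle whether the numbers mark a shared culture or batch, and the main fit used no replicate block. With a replicate block 19 members were higher and 6 lower. With the block and GC correction 17 were higher and 6 lower, VNI2 (0.03, adjusted p = 0.795) and ANAC096 (0.21, adjusted p = 0.17) losing their calls. With the GC correction alone, which was added after the data were seen, 20 were higher and 7 lower.

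A required log2 difference of 1 left 1190 higher and 531 lower genes, 10 and 2 members, 0 and 0 other NAC genes, 3 higher mitochondrial genes, 0 higher and 0 lower root cap genes, 0 lower DNA damage genes and 0 higher ABA and ageing genes. An FPKM of 1 in every sample left 3 higher other NAC genes and 1 lower DNA damage gene. Median-ratio scaling gave 9 higher and 4 lower other NAC genes, 1 higher xylem gene and 3 higher DNA damage genes. TPM scaling gave 1 lower mitochondrial gene, 0 higher root cap genes, and 0 higher and 1 lower ABA and ageing genes. Quantile normalization gave 1 lower mitochondrial gene, 1 higher xylem gene, 2 higher DNA damage genes and 1 lower ABA and ageing gene. Without a filter, 0 root cap genes were higher and 1 ABA and ageing gene was lower. Root cap genes numbered 0 higher with the replicate block, and 0 higher and 5 lower with the GC correction, with or without the block. Without the mean-variance trend 0 ABA and ageing genes were higher. With the exception of the filters, which change the genes tested, and the log2 limit, the cause was not tested.

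Leaving out 1 sample at a time gave 3421 to 4024 higher and 6235 to 6495 lower genes, 18 to 20 and 6 to 6 members, 5 to 8 higher other NAC genes (8 without Al replicate 3), 0 to 1 higher xylem genes (1 without control replicate 1) and 0 to 1 lower ones (1 without Al replicate 2). It gave 0 to 1 higher root cap genes, 3 to 5 lower ones (5 without Al replicate 3), 1 to 2 higher DNA damage genes (2 without Al replicate 1), and 0 to 1 higher and 0 to 1 lower ABA and ageing genes (1 lower without control replicate 1).

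Every member whose sign turned was uncalled before and after. RD26 was at 0.0243 with the GC correction, with or without the block, at 0.0791 with median-ratio scaling, and at -0.154 to 0.00182 with 1 sample left out. NAP was at -0.0614 with the GC correction, with or without the block, and at -0.00243 to 0.276 with 1 sample left out, being called higher without control replicate 3 (adjusted p = 0.0493). ANAC017 was at -0.0592 with TPM scaling, -0.0347 with quantile normalization and -0.0257 to 0.0305 with 1 sample left out. ANAC082 was at -0.0125 with quantile normalization. VND6 was at 0.0494 with median-ratio scaling, 0.00872 with quantile normalization and -0.128 to 0.125 with 1 sample left out. VND7 was at -0.209 to 0.00438 and SND2 at -0.235 to 0.137 with 1 sample left out. With median-ratio scaling SND2 was at 0.00133 and ANAC052 at 0.00138. Depth limits the members under 1 FPKM, where a value rests on few fragments.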

Other observations

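Further genes marked NAC in the table, outside the 47 members, also differed. NAC097 had 9.5, 12.06 and 9.69 FPKM after Al and 6.21, 6.21 and 4.57 FPKM in control. NTM1, a factor of the cell cycle, had 60.28, 49.16 and 40.77 FPKM after Al and 28.3, 32.43 and 29.95 FPKM in control. Both were called higher by limma, and in both every Al sample lay above every control sample. NAC014 had 8.09, 7.49 and 7.17 FPKM after Al and 11.64, 13.35 and 14.51 FPKM in control. NAC3 (AT3G29035), which promotes leaf ageing, had 21.78, 23.54 and 24.08 FPKM after Al and 33.43, 35.95 and 45.78 FPKM in control. Both were called lower, with log2 differences of -0.72 and -0.70.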
